A study of Mus musculus with 6 samples.

Results

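Endothelial cells line the blood and lymph vessels of the lung. The alveolar capillaries hold general capillary cells and the thin, gas-exchanging aerocytes, and arteries, veins and lymphatics carry marker genes of their own. Endothelium does not normally make the Pdgfra receptor, which marks lung fibroblasts (FBs), so in a sort for Pdgfra reporter cells endothelial barcodes are the ones not sought. The endothelial barcodes of the repetitive bleomycin experiment were chosen by measured values: at least 1000 unique molecular identifiers (UMIs, counted transcripts), 0 UMIs of the leukocyte gene Ptprc and the epithelial gene Epcam, and 3 or more UMIs of Cdh5, Pecam1 and Cldn5 together. These 3 rule genes encode VE-cadherin, the junction protein CD31 and the tight junction protein claudin-5. In all, 242 of the 16876 barcodes of both libraries were members.

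Male mice carrying the PDGFRa-EGFP reporter were given bleomycin, a drug that injures the lung, or PBS by oropharyngeal aspiration of 50 ul in 3 weekly doses, of which the last bleomycin dose was 0.5 U/kg and the others 1 U/kg, and lungs were taken 2 weeks after the last dose. GFP+ cells of 3 mice were pooled into 1 library for each condition, so there was no replicate, no difference between conditions could be tested, and condition and library cannot be told apart. Values below are UMIs summed over the members of a library and scaled to their total (CPM), with exact 95% Poisson intervals, and shares carry exact Clopper-Pearson intervals. Both cover counting error only, not differences between mice or between sorts. The PBS library held 6139 barcodes with a median of 10178 UMIs and the bleomycin library 10737 barcodes with a median of 2478. The libraries had 28 cell barcodes in common, no member was a member in both, and 1 member's barcode also occurred in the other library.

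The rule found 140 members among 5997 PBS barcodes with 1000 or more UMIs (2.33%, 95% interval 1.97 to 2.75) and 102 among 8826 bleomycin barcodes (1.16%, 0.943 to 1.40). The share was thus 2.02 times as large in PBS. Depth moved with it: PBS members had a median of 12637.5 UMIs (1085 to 72921) and bleomycin members 4729.5 (1028 to 31132). When each barcode was thinned to 1000 UMIs, 71.0 (1.18%) PBS and 42.0 (0.476%) bleomycin barcodes were expected to keep 3 rule UMIs. The reporter gate can set these shares too, since it selects on Pdgfra, and its part was not tested. Member UMIs totalled 1968286 in PBS and 762296 in bleomycin, and the 5 deepest members held 11.6% and 19.7% of them.

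By the rule, all members carried rule UMIs, with a median of 26 in PBS (highest 251) and 7 in bleomycin (highest 138). Cdh5 stood at 765 CPM in PBS and 618 CPM in bleomycin members, Pecam1 at 569 and 561 CPM, and Cldn5 at 1300 and 918 CPM. Just inside the threshold, 15 PBS and 24 bleomycin barcodes had exactly 3 rule UMIs, and just outside it 41 and 37 had exactly 2. In the GENCODE annotation of mm10, Cdh5 spans chromosome 8, 104101625 to 104144511, Cldn5 chromosome 16, 18776847 to 18778262, and Pecam1 chromosome 11, 106654217 to 106750628.

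The label was checked with 26 other endothelial genes, among them the VEGF receptors Kdr and Flt1, the receptor tyrosine kinases Tek and Tie1 and the transcription factors Erg and Sox18. PBS members held 11932 CPM (11780 to 12085) of these identity genes and bleomycin members 8809 CPM (8599 to 9022). The barcodes with 0 rule UMIs, 5268 in PBS and 7879 in bleomycin, held 264 and 328 CPM of them. At least 5 identity genes were seen in 121 PBS (86.4%) and 82 bleomycin members (80.4%), against 2.18% and 5.37% of the barcodes with 0 rule UMIs.

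Not all members bore out the label. Identity genes made up less than 0.1% of the UMIs in 37 members, 20 in PBS and 17 in bleomycin, a limit set after the values were seen. The rule UMIs of these barcodes came mainly from Pecam1, with 71 of Pecam1, 8 of Cdh5 and 3 of Cldn5 in PBS and 48, 6 and 14 in bleomycin. More than 1 rule gene was seen in 2 and 3 of the barcodes. Their median was 3 rule UMIs, at the limit of the rule, so this count is no check of the label. Their FB genes stood at 48410 CPM in PBS and 69868 CPM in bleomycin, close to the 49839 and 67448 CPM of the barcodes with 0 rule UMIs. By their identity genes these 37 barcodes are called by the rule only, and the main results are also given without them. The other 120 PBS and 85 bleomycin members held identity genes at 14842 and 12784 CPM, and more than 1 rule gene was seen in 119 and 80 of them. The identity limit and the rule chose these members, so neither value is a check of their label.

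**Figure D1:**
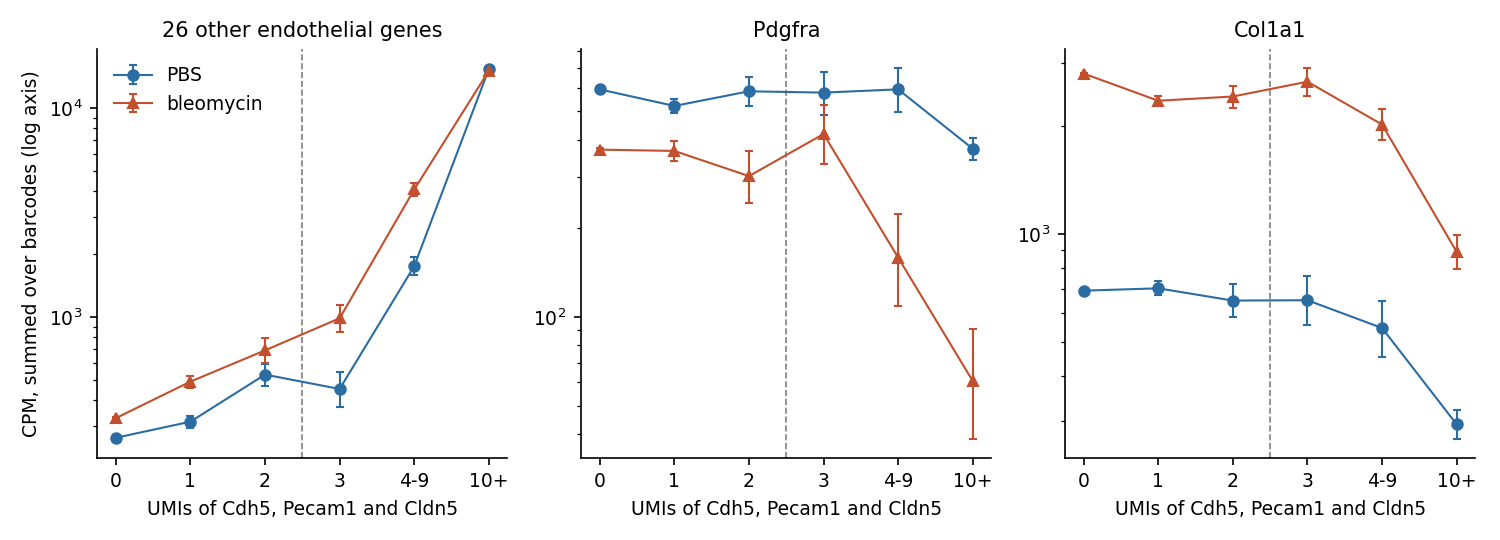
CPM (log axis) of the 26 identity genes, Pdgfra and Col1a1, summed over barcodes with 0, 1, 2, 3, 4 to 9 and 10 or more rule UMIs, for PBS (circles) and bleomycin (triangles); error bars are exact 95% Poisson intervals and the dashed line marks the rule. Identity genes climb from 452 CPM at 3 rule UMIs to 15362 CPM at 10 or more in PBS, and from 986 to 15057 CPM in bleomycin, while Pdgfra and Col1a1 are lowest at 10 or more.

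Identity RNA depended on how many rule UMIs a barcode had. Barcodes with exactly 2 rule UMIs held 530 CPM of identity genes in PBS and 692 CPM in bleomycin, those with exactly 3 held 452 and 986 CPM, and those with 4 to 9 held 1751 and 4073 CPM. At 10 or more rule UMIs the libraries were alike in this sum, with 15362 CPM over 110 PBS barcodes and 15057 CPM over 37 bleomycin barcodes. Bins of equal rule UMIs are not like barcodes, since the libraries differed in depth.

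FB RNA was present in most members of both libraries. PBS members held 424 CPM of Pdgfra (396 to 454) and bleomycin members 172 CPM (144 to 204), and it was seen in 65.0% and 50.0% of them. The type I collagen gene Col1a1 stood at 367 CPM (341 to 395) against 1610 CPM (1521 to 1702), and was seen in 65.0% and 75.5%. The barcodes with 0 rule UMIs differed in the same directions, with Pdgfra at 594 and 371 CPM and Col1a1 at 694 and 2803 CPM. The 15 FB genes together made up 26794 CPM of PBS and 48157 CPM of bleomycin member UMIs. Only 41 PBS and 23 bleomycin members had 0 UMIs of both Pdgfra and Col1a1, and these are called FB-low below. In FB-low members identity genes reached 30741 CPM in PBS and 22825 CPM in bleomycin, and FB genes 1128 and 1700 CPM. Not every FB-low barcode was low in FB genes. These made up 4.55% of 1 bleomycin barcode (1186 UMIs) and 2.13% of 1 PBS barcode (1218 UMIs). That bleomycin barcode and another FB-low one (2620 UMIs) held 1 identity UMI each and were among the 37 called by the rule only.

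**Figure D2:**
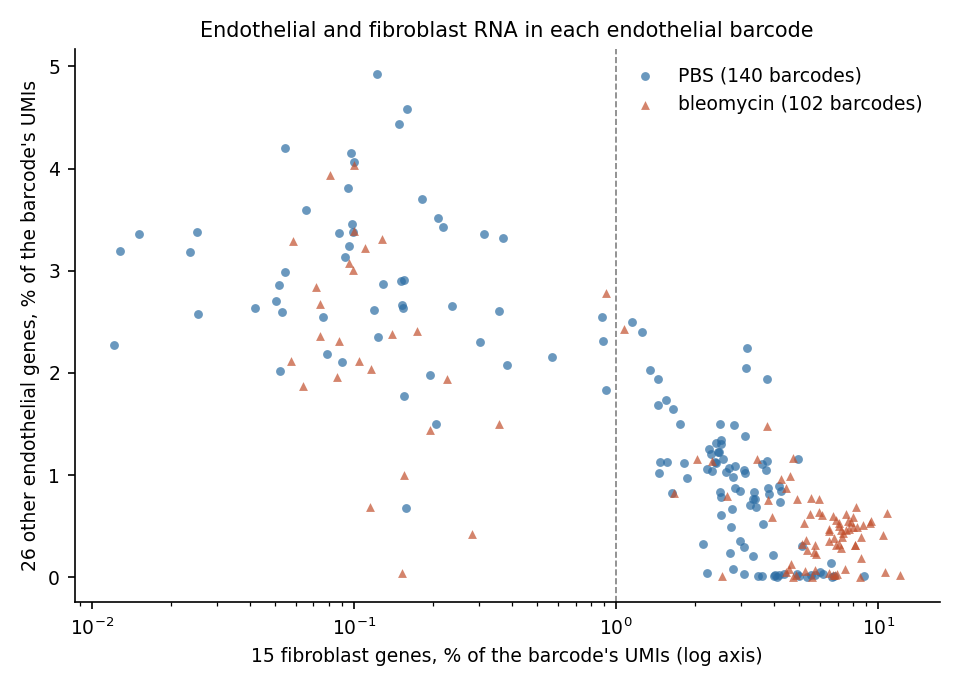
Each point is 1 endothelial barcode, 140 from PBS (circles) and 102 from bleomycin (triangles); the x axis (log) is the percent of its UMIs from 15 FB genes, the y axis the percent from 26 identity genes, and the dashed line marks 1%. Barcodes left of the line, 52 in PBS and 27 in bleomycin, mostly hold 2% or more identity RNA, and a band near 0% identity lies at the right.

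The plot of endothelial against FB RNA showed barcodes of unlike makeup in both libraries. FB genes were under 1% of UMIs in 52 PBS members (37.1%) and 27 bleomycin members (26.5%), which had identity genes at 27220 and 24628 CPM. Of these, 47 and 18 had at least 2% of their UMIs from identity genes. In the 88 PBS and 75 bleomycin members above this limit, identity genes stood at 8596 and 3628 CPM, and median depth was 16946 and 4475 UMIs. No doublet caller was run, so barcodes that hold more than 1 cell stayed in. Whether the FB RNA came from such barcodes or from free RNA was not tested.

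Genes of other cell types were also seen in members. Smooth muscle and pericyte genes stood at 338 CPM in PBS and 735 CPM in bleomycin members, where barcodes with 0 rule UMIs held 193 and 583 CPM. B and plasma cell genes stood at 4.06 and 85.3 CPM, against 528 and 1854 CPM in those barcodes, where 1 PBS barcode held 97.6% of the UMIs (12.6 CPM without it). Macrophage genes stood at 15.2 and 43.3 CPM, alveolar and airway epithelial genes at 36.6 and 73.5 CPM, mesothelial genes at 153 and 56.4 CPM, T cell genes at 3.05 and 1.31 CPM, neutrophil genes at 1.52 and 2.62 CPM, and erythrocyte and platelet genes at 14.7 and 27.5 CPM. At 0 UMIs in PBS and bleomycin members were 5 and 6 of 12 macrophage genes, 8 and 4 of 12 epithelial genes, 3 and 6 of 10 mesothelial genes and 6 and 9 of 10 T cell genes, C1qa, Krt8, Wt1 and Cd3e among them in both. The mesothelial gene Upk1b had 180 and 15 UMIs, in 62 and 11 members, the airway gene Scgb1a1 had 44 and 25 UMIs and the alveolar gene Sftpc 22 and 20 UMIs. The part of these cell types in the results was not tested.

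Bleomycin and PBS members were then compared gene by gene, as log2 ratios of CPM after adding 1 CPM. Of 9989 genes with at least 20 UMIs in members, 495 (4.96%) were higher by 2-fold or more in bleomycin and 615 (6.16%) were lower, and the median log2 ratio was -0.03. Among the 494 genes at least 4-fold higher in members than in barcodes with 0 rule UMIs (endothelial-enriched genes, on the mean of both libraries), 24 (4.86%) were higher and 48 (9.72%) lower, with a median of -0.23. A gene could pass this limit through the library where it was high, so a difference between the libraries bears on which genes are in the set. Among the 388 genes at least 4-fold higher in each library, 15 (3.87%) were higher and 24 (6.19%) lower, with a median of -0.17. With the 494 genes kept fixed, the split was 36 and 28 at 5 or more rule UMIs, 31 and 31 without the 37 barcodes named above, 41 and 23 without the 5 deepest members of each library, and 28 and 63 of 362 genes among FB-low members. No direction is therefore read from it. Among all 3610 genes compared in FB-low members, 5.93% were higher and 8.84% lower by 2-fold. Pdgfra (log2 ratio -1.30) and Col1a1 (2.13) moved in opposite directions beside all comparisons that follow.

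**Figure D3:**
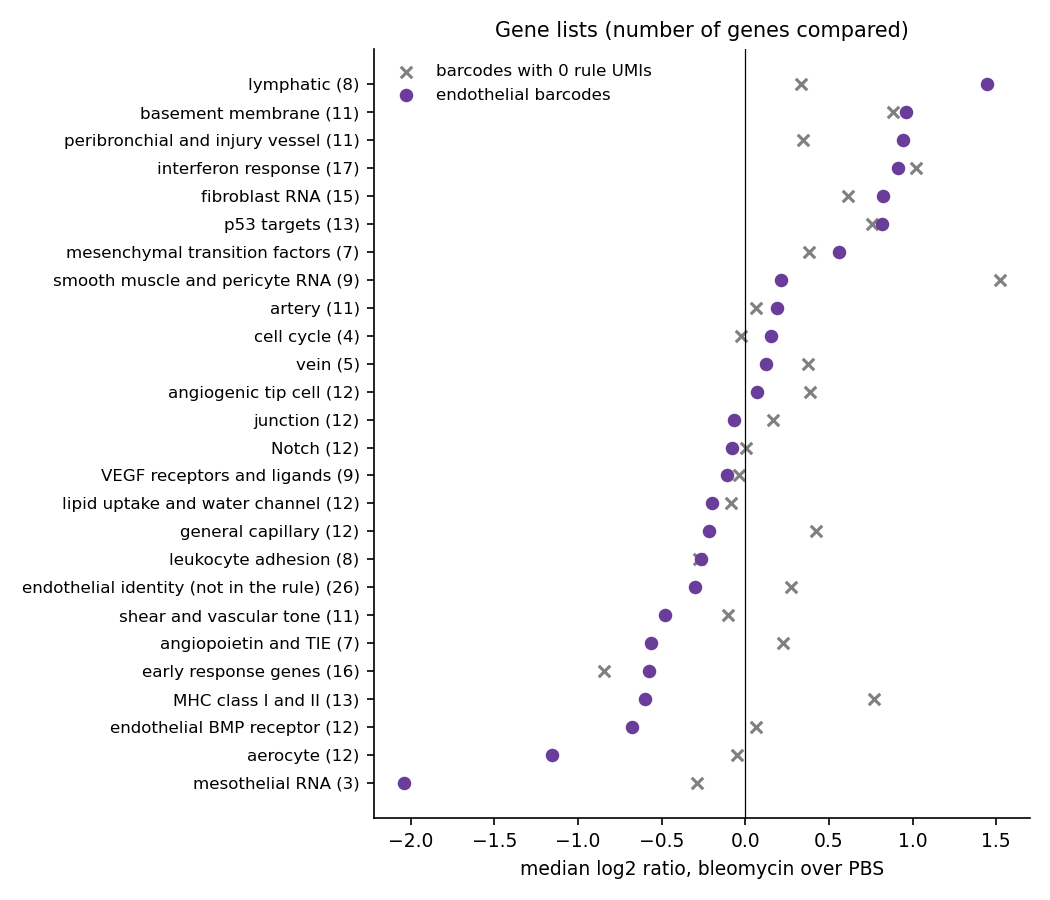
Median log2 ratio (bleomycin over PBS) of each gene list with 3 or more genes compared, in endothelial barcodes (circles) and in barcodes with 0 rule UMIs (crosses); the number of genes is in parentheses. The aerocyte median is -1.16 in endothelial barcodes and -0.05 in the others, and the MHC median -0.60 against 0.77.

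Most aerocyte genes compared were lower in bleomycin members. Of 12 genes on the list, 7 were lower by 2-fold or more and 1 was higher, with a median log2 ratio of -1.16, against 6.16% of all genes lower. Cyp4b1, a cytochrome P450, stood at 278 CPM in PBS and 78.7 CPM in bleomycin members and was seen in 97 of 140 PBS and 25 of 102 bleomycin members (24.9% and 7.23% after thinning to 1000 UMIs). Its log2 ratio was -1.81, 95% counting interval -2.23 to -1.43, while in barcodes with 0 rule UMIs it was -0.10. Ednrb, an endothelin receptor, stood at 101 CPM in 23 PBS members and 27.5 CPM in 6 bleomycin members, where 1 barcode held 76.2% of its UMIs. Car4, a membrane carbonic anhydrase, stood at 146 CPM in 48 and 72.2 CPM in 24 members (log2 ratio -1.01, -1.46 to -0.60). Car4 and Ednrb occurred together in 19 PBS and 2 bleomycin members. Fibin (-1.60) and Emp2 (-1.31) were also lower in barcodes with 0 rule UMIs (-0.90 and -0.75), so they are not particular to the endothelial barcodes. Chst1 (59 UMIs in PBS, 5 in bleomycin) and Rprml (35 and 3) rested on few UMIs, with log2 ratios of -2.03 (-3.87 to -0.89) and -1.93 (-4.52 to -0.51).

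Not every aerocyte gene followed. Kdr, the main VEGF receptor, stood at 255 and 236 CPM (log2 ratio -0.11), but 1 bleomycin barcode of 6002 UMIs held 27.2% of its UMIs, and without that barcode it stood at 173 CPM in bleomycin (-0.55). Little difference was seen in Prx (-0.24) and Tbx2 (-0.33), while Apln, the ligand of the apelin receptor, stood at 26.4 and 13.1 CPM (-0.96). Igfbp7 was the gene higher by 2-fold (1.03), and it was higher in barcodes with 0 rule UMIs too (1.22). In FB-low members, where Pdgfra and Col1a1 are 0 by choice, 7 of 10 aerocyte genes were lower by 2-fold or more, against 8.84% of all genes, with a median of -1.20. Car4 had a log2 ratio of -2.06, Cyp4b1 of -2.28, Ednrb of -1.11 and Kdr of 0.34. The barcode of 6002 UMIs, itself FB-low, held all 16 Ednrb UMIs of the FB-low bleomycin members, 18 of 22 Cyp4b1 UMIs and 49 of 100 Kdr UMIs. Without it Kdr turned to -0.56 there, Ednrb had 0 UMIs and Cyp4b1 4. Over all members without that barcode, 8 of 12 aerocyte genes were lower and 1 higher, with a median of -1.65. Without the 37 barcodes named above the aerocyte median was -1.04, and Car4 stood at -0.78, inside 2-fold. With the identity genes as scale the list median was -0.72.

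**Figure D4:**
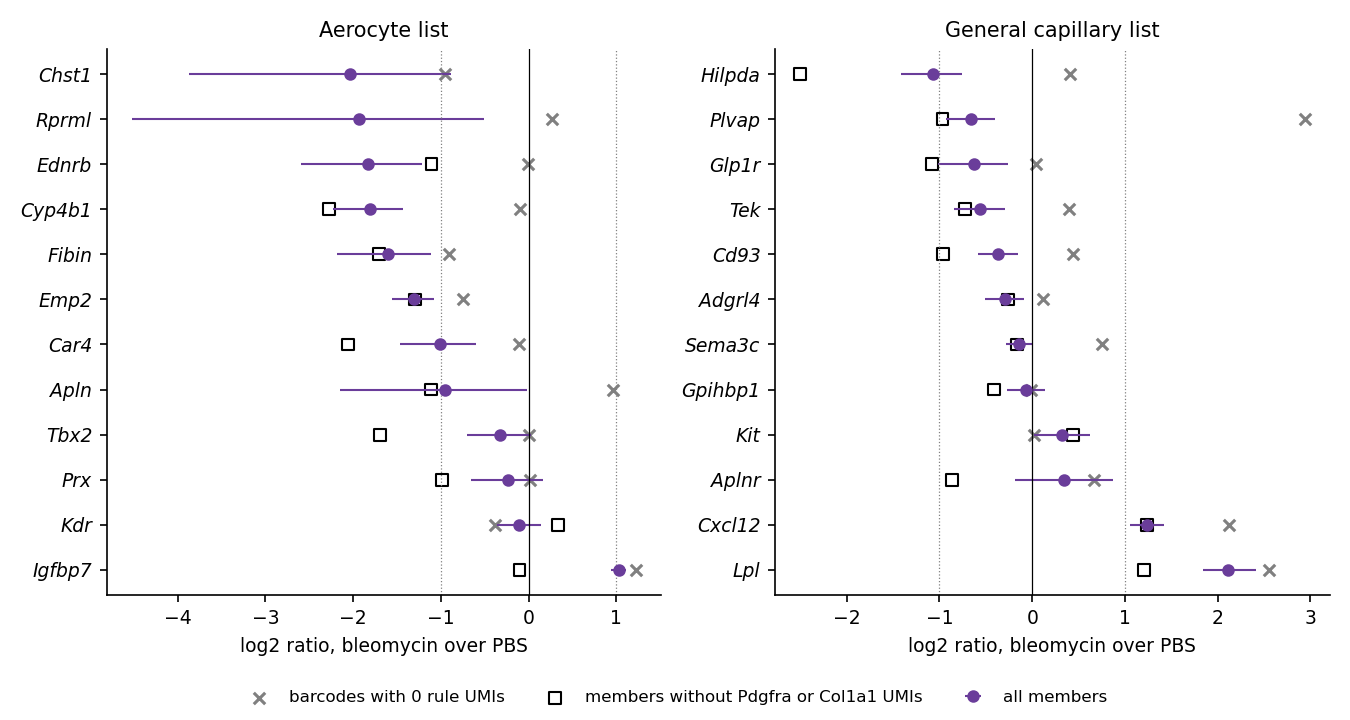
Log2 ratio (bleomycin over PBS) of the 12 aerocyte and 12 general capillary genes in all endothelial barcodes (circles, lines are 95% counting intervals), in members without Pdgfra or Col1a1 UMIs (open squares, where at least 20 UMIs were seen) and in barcodes with 0 rule UMIs (crosses); dotted lines mark 2-fold. On the left 7 circles lie at or below -1, on the right only Hilpda does.

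General capillary genes differed less. Of 12 genes, 1 was lower by 2-fold, against 6.16% of all genes, and 2 were higher, against 4.96%, with a median of -0.22. The median was 0.0043 without the 37 barcodes, and in FB-low members it was -0.57. There 2 of 12 genes were lower, against 8.84% of all genes, and 2 higher, against 5.93%. Gpihbp1, which holds lipoprotein lipase on the capillary wall, stood at 362 CPM in PBS and 346 CPM in bleomycin members (log2 ratio -0.06, -0.27 to 0.14), and was seen in 105 and 52 of them. Sema3c stood at 762 and 691 CPM, and the receptor tyrosine kinase Kit at 143 and 180 CPM. Plvap, the protein of capillary diaphragms, was lower (314 and 198 CPM, -0.66), though in barcodes with 0 rule UMIs it was higher (2.94). Hilpda, a lipid droplet gene, was past 2-fold (261 and 123 CPM, -1.07). The 2 higher genes, Lpl (2.11) and Cxcl12 (1.23), were higher in barcodes with 0 rule UMIs as well (2.55 and 2.13) and were not endothelial-enriched.

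The enriched markers of these lists were also summed. They are a part of the same genes and UMIs, so the sums are no separate support. A gene could pass as enriched through the library where it was high. In PBS members the 7 aerocyte markers summed to 927 CPM (885 to 971), in bleomycin members to 519 CPM (470 to 573), and the 10 general capillary markers at 3116 (3039 to 3195) and 2520 CPM (2409 to 2635). Of the aerocyte sum 1 barcode held 6.41% in PBS and 25.8% in bleomycin, and of the general capillary sum 4.11% and 10.4%. At least 2 UMIs of the aerocyte markers were seen in 72.9% and 46.1% of members, or 21.6% and 11.1% after thinning. For the general capillary markers this was 88.6% and 75.5%, or 68.1% and 42.6% after thinning. The difference between the aerocyte and the general capillary change was not tested.

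Identity genes were lower in bleomycin in 21 of 26 cases, but only Tspan7, a tetraspanin, passed 2-fold (713 and 328 CPM, -1.12), where 6.16% of all genes were lower. The list median was -0.30, and without the 37 barcodes it was -0.07, with Tspan7 at -0.88, inside 2-fold. In FB-low members 1 of 26 was higher, against 5.93% of all genes, and 4 were lower, against 8.84%, with a median of -0.31. The calcitonin receptor-like receptor Calcrl stood at 1386 and 1328 CPM (-0.06) and its partner Ramp2 at 1042 and 588 CPM (-0.82). Emcn, a sialomucin of capillary and venous endothelium, was the highest (100 and 189 CPM, 0.91, 0.60 to 1.23), and without the 37 barcodes it passed 2-fold (1.14).

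Of 11 arterial genes 3 were higher, against 4.96% of all genes, and 1 lower, against 6.16%, with a median of 0.19. None of the 3 higher genes was endothelial-enriched. The 6 enriched arterial genes (Gja4, Bmx, Sox17, Efnb2, Hey1 and Dll4) were all inside 2-fold. Their summed UMIs were level between the libraries (PBS 518 CPM, bleomycin 516 CPM). In FB-low members 3 of 7 arterial genes were higher, against 5.93% of all genes, and 0 lower, with a median of 0.92. The higher ones there were Gja4 (1.02, on 44 and 49 UMIs), Hey1 (1.11, on 15 and 18) and Plac8 (1.06, on 20 and 23). That median is the value of Mgp, which is also on the list of FB genes and is not endothelial-enriched. The enriched genes Sox17, Efnb2 and Dll4 stood at 0.57, 0.01 and -0.72 there. The gap junction genes Gja5 and Gja4 moved apart: Gja5 stood at 74.7 CPM in PBS and 24.9 CPM in bleomycin members (-1.55, and -1.23 in barcodes with 0 rule UMIs) and Gja4 at 98.6 and 147 CPM (0.57). FB-low members held 1 PBS and 2 bleomycin UMIs of Gja5, and it was seen in 48.9% and 15.6% of the barcodes with 0 rule UMIs. Sox17, an arterial transcription factor, stood at 122 and 139 CPM. Plac8 was higher (26.4 and 198 CPM, 2.86), in 19 and 45 members, with 38.4% of its bleomycin UMIs in 1 barcode (2.21 without it), and was also higher in barcodes with 0 rule UMIs (2.26). Of the vein list 5 of 10 genes could be compared and none passed 2-fold. Vwf, the von Willebrand factor, stood at 69.6 CPM in 41 PBS and 113 CPM in 24 bleomycin members (0.69, 0.29 to 1.10). The venule genes Ackr1 and Sele had 0 UMIs in both, which allows up to 1.52 CPM in PBS and 3.94 CPM in bleomycin members.

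Lymphatic endothelium was represented by a handful of barcodes. Prox1, the transcription factor that specifies lymphatic cells, had 7 UMIs in 1 PBS member and 16 UMIs in 5 bleomycin members. The PBS barcode (15253 UMIs) also held 242 UMIs of the chemokine Ccl21a, 51 of Mmrn1, 11 of Reln and 14 of Flt4, and no Ccl21a, Mmrn1 or Reln was seen in any other PBS member. Among the 5 bleomycin barcodes, 4 held Ccl21a (201, 42, 17 and 23 UMIs) and Mmrn1 (30, 21, 3 and 2 UMIs), and the 1 left had neither. The list median was 1.44, with 6 of 8 genes higher by 2-fold, beside 4.96% of all genes. The ratios of Prox1, Ccl21a, Mmrn1 and Reln rest on 1 barcode in PBS, and in bleomycin 1 barcode held 69.8% of Ccl21a. Pdpn (1.40, 11 and 28 members), Fgl2 (1.13, 7 and 15 members) and Flt4 (0.82, 31 and 16 members) were seen in more members, though 1 barcode held 62.2% of the PBS and 51.3% of the bleomycin UMIs of Fgl2. The PBS barcode had 2 Pdgfra UMIs and was not FB-low. Among FB-low members PBS held 0 UMIs of 3 of the 5 lymphatic genes compared (Ccl21a, Mmrn1 and Fgl2), so no median is read there. Lyve1, a hyaluronan receptor of lymphatics, was not limited to them: it was seen in 66 PBS and 24 bleomycin members (152 and 110 CPM, -0.46). However, 1 bleomycin barcode with Prox1 held 44.0% of its UMIs, and the PBS barcode with Prox1 held 12.3%. Without the bleomycin one the Lyve1 log2 ratio was -1.27, and without both it was -1.09.

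Genes of peribronchial and injury-associated vessels were higher by 2-fold in bleomycin in 5 of 11 cases, against 4.96% of all genes, with a median of 0.94. Only 3 of them, Lrg1, Plvap and Meox1, were endothelial-enriched, and of these 1 was higher and 0 lower. The sum of these 3 genes scaled to CPM was level between the libraries (PBS 339 CPM, bleomycin 346 CPM). At least 2 UMIs of the 3 were seen in 66.4% of PBS and 31.4% of bleomycin members, or 10.6% and 7.02% after thinning. Plvap was the lowest gene of the list (-0.66). Lrg1, a secreted glycoprotein, stood at 9.65 CPM (19 UMIs) in 11 PBS members and 118 CPM (90 UMIs) in 31 bleomycin members, a log2 ratio of 3.48 (2.89 to 4.41). After thinning it was expected in 1.20% and 12.1% of members. It was higher by as much in barcodes with 0 rule UMIs (3.35), where 0.133% and 3.90% of barcodes had a UMI. In FB-low members its log2 ratio was 4.06. The basement membrane collagen gene Col15a1 stood at 12.7 and 104 CPM (2.93, and 1.45 in barcodes with 0 rule UMIs), with 0 and 4 of its 25 and 79 UMIs in FB-low members, Ntrk2 at 23.4 and 108 CPM (2.16) and Ebf1 at 37.1 and 130 CPM (1.78). In each of these genes no bleomycin barcode held more than 21.6% of the UMIs.

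Genes of vessel growth pathways passed 2-fold in both directions, where 4.96% of all genes were higher and 6.16% lower. VEGF signalling drives endothelial survival and sprouting, and none of the 9 genes compared passed 2-fold, with Flt1 at 424 and 317 CPM, the coreceptor Nrp1 at 477 and 539 CPM and the ligand Vegfc at 27.4 and 52.5 CPM (0.91). In FB-low members 2 of 7 were higher, against 5.93% of all genes, and 1 lower, against 8.84%. Flt4 (2.08) and the coreceptor Nrp2 (4.53, on 3 and 41 UMIs) were higher, and Vegfc turned to -1.27, on 31 and 7 UMIs. Of the 26 Flt4 UMIs in FB-low bleomycin members, 13 and 6 lay in a pair of barcodes with Prox1, and 15 of the 41 Nrp2 UMIs in 1 of these, while the PBS barcode with Prox1, which held 14 Flt4 and 31 Nrp2 UMIs, was not FB-low. Over all members Nrp2 stood at -0.10. Of 12 tip cell genes 1 was higher, against 4.96% of all genes, and 1 lower, against 6.16%. The higher one was Trp53i11 (1.73), and the lower one the peptide hormone gene Adm (124 and 42.0 CPM, -1.55, and -1.33 in barcodes with 0 rule UMIs), of which FB-low members held 2 and 1 UMIs. In FB-low members 2 of 7 tip cell genes were higher, against 5.93% of all genes, and 2 lower, against 8.84%. The tip cell gene Esm1 had 6 and 4 UMIs. Angpt1, the agonist of the TIE2 receptor that Tek encodes, stood at 648 and 275 CPM (-1.23), but this gene was held by members with FB RNA: in FB-low members it had 2 UMIs in each library. Its antagonist Angpt2 stood at 25.4 and 24.9 CPM and Tek at 272 and 184 CPM (-0.56). In the Notch pathway 1 of 12 genes was higher, against 4.96% of all genes, and 1 lower, against 6.16%. The higher one was the target Heyl (22.9 and 76.1 CPM, 1.69, with 0 UMIs in FB-low members of both libraries and 29.3% of the bleomycin UMIs in a barcode of 29926 UMIs). The lower one was the ligand Dll1 (21.3 and 7.87 CPM, -1.33), while the arterial ligand Dll4 stood at 49.8 and 38.0 CPM. In FB-low members 1 of 6 Notch genes was higher, against 5.93% of all genes, and 1 lower, against 8.84%.

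The BMP receptor pathway keeps lung endothelium quiescent. None of its 12 genes passed 2-fold, but the median was -0.68, against 0.06 in barcodes with 0 rule UMIs. The receptor gene Bmpr2 stood at 865 and 501 CPM (-0.79), the coreceptor Eng at 435 and 261 CPM (-0.74), the ligand Bmp6 at 319 and 180 CPM (-0.82), and the targets Smad6 at 165 and 90.5 CPM (-0.86) and Id1 at 308 and 169 CPM (-0.86). Smad5 was higher (48.8 and 91.8 CPM, 0.90). In FB-low members 2 of 11 were higher (Smad5 at 1.99 and Smad1 at 1.06), against 5.93% of all genes, and 2 lower (Smad6 at -1.48 and Eng at -1.01), against 8.84%. The median there was -0.72. Smad5 rested on 9 PBS and 20 bleomycin UMIs there, 6 of the latter in 1 barcode with Prox1, and Smad1 on 20 and 23. Without the 37 barcodes the median was -0.48, and with the identity genes as scale -0.24.

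Of 13 MHC class I and II genes, which present antigen, 2 were lower by 2-fold in members, against 6.16% of all genes. All 13 had log2 ratios below 0, with a median of -0.60, while their median in barcodes with 0 rule UMIs was 0.77. With the identity genes as scale the median in members was -0.16. Past 2-fold were H2-DMa, which loads peptides onto class II molecules (62.0 and 24.9 CPM, -1.28), and the class II chain gene H2-Ab1 (244 and 121 CPM, -1.01). H2-Ab1 was only just past it, at -0.92 without the 37 barcodes and -0.66 in FB-low members. Cd74, the class II invariant chain, named here after its values were seen, stood at 777 CPM in 111 PBS members and 426 CPM in 55 bleomycin members (-0.86), and at 2.13 in barcodes with 0 rule UMIs. Of class I, H2-D1 stood at 1594 and 1219 CPM (-0.39) and B2m at 1442 and 1372 CPM (-0.07), but in FB-low members H2-D1 was past 2-fold (-1.15, on 769 and 190 UMIs) and B2m at -0.58. In FB-low members 4 of 11 genes were lower by 2-fold, against 8.84% of all genes, with a median of -0.85. The difference between members and the other barcodes was not tested.

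Of 11 basement membrane genes 5 were higher by 2-fold in members, against 4.96% of all genes, with a median of 0.96 against 0.88 in barcodes with 0 rule UMIs. Sparc, a matrix-binding glycoprotein, stood at 1024 and 3745 CPM (1.87) in 126 and 97 members, or 49.8% and 85.0% after thinning, and the type IV collagen gene Col4a1 at 359 and 1135 CPM (1.66) in 131 and 95. Both were also seen in most barcodes with 0 rule UMIs, and in FB-low members the log2 ratio was 2.19 for each. There 4 of 6 genes of the list were higher, against 5.93% of all genes. Junction genes were nearly level, with a median of -0.07 and 1 of 12 higher by 2-fold, against 4.96% of all genes, Jam3 on 14 and 13 UMIs. Of 7 mesenchymal transition genes 2 were higher, against 4.96% of all genes. These were Fn1 (1.51) and S100a4 (1.81), and both were higher in barcodes with 0 rule UMIs (1.89 and 1.98). The list median was 0.56, and -0.12 over the 3 genes that could be compared in FB-low members.

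The lipid uptake list had 3 genes higher and 2 lower of 12, against 4.96% and 6.16% of all genes (median -0.20): the scavenger receptor Cd36 stood at 966 and 813 CPM, and all 75 PBS UMIs of the fatty acid carrier Fabp4 lay in 1 barcode. Shear and vascular tone genes had a median of -0.48, against -0.11 in barcodes with 0 rule UMIs, with Klf2, a flow-induced transcription factor, at 689 and 442 CPM (-0.64, and -0.65 in barcodes with 0 rule UMIs). In FB-low members 3 of 10 shear genes were lower, against 8.84% of all genes (median -0.26). Of 9 lipid uptake genes 2 were higher there, against 5.93% of all genes, and 1 lower, against 8.84% (median -0.20). Early response genes had a median of -0.58 against -0.85, with Atf3 at 714 and 258 CPM (-1.46), the 1 of 16 genes lower by 2-fold, against 6.16% of all genes. In FB-low members 6 of 15 were lower, against 8.84% of all genes, with a median of -0.83, and Atf3 was inside 2-fold (-0.65). Among p53 targets 5 of 13 were higher, against 4.96% of all genes, with a median of 0.82 against 0.76, and the cell cycle inhibitor Cdkn1a stood at 274 and 468 CPM (0.77). In FB-low members Cdkn1a was at -0.70 and the list median at -0.20 over 5 genes. Of the cell cycle list 4 of 16 genes reached 20 UMIs and none passed 2-fold (median 0.15).

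Several of the highest log2 ratios came from 1 barcode. Of the 48 named genes higher by 2-fold, 34 stayed past 2-fold without the bleomycin barcode that held most of their UMIs, and of the 36 lower ones 32 did so without the PBS barcode that held most. Of the 17 interferon response genes 8 were higher by 2-fold, against 4.96% of all genes, and 2 lower, against 6.16%. Their median was 0.91, and 1.02 in barcodes with 0 rule UMIs. However, 1 bleomycin barcode of 25180 UMIs, with 23 rule UMIs and 2 Pdgfra and 3 Col1a1 UMIs, held 630 of the 2683 UMIs of the list (23.5%). It held 97.4% of the UMIs of Rsad2, an antiviral enzyme gene, 87.5% of Ifit3 and 92.5% of the chemokine gene Cxcl10. Without it 1 of 16 genes was higher and 2 were lower, with a median of 0.13, beside 4.96% and 6.16% of all genes with that barcode kept in. In FB-low members, which that barcode is not among, 1 of 8 was higher, against 5.93% of all genes, and 3 were lower, against 8.84%, with a median of -0.83. Without the barcode Rsad2 stood at -0.77 instead of 4.13, Ifit3 at 0.09 instead of 2.99 and Cxcl10 at -0.07 instead of 3.59. The guanylate-binding protein genes Gbp4 (-1.42) and Gbp2 (-1.28) were lower with that barcode and without it (-1.85 and -1.42).

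**Figure D5:**
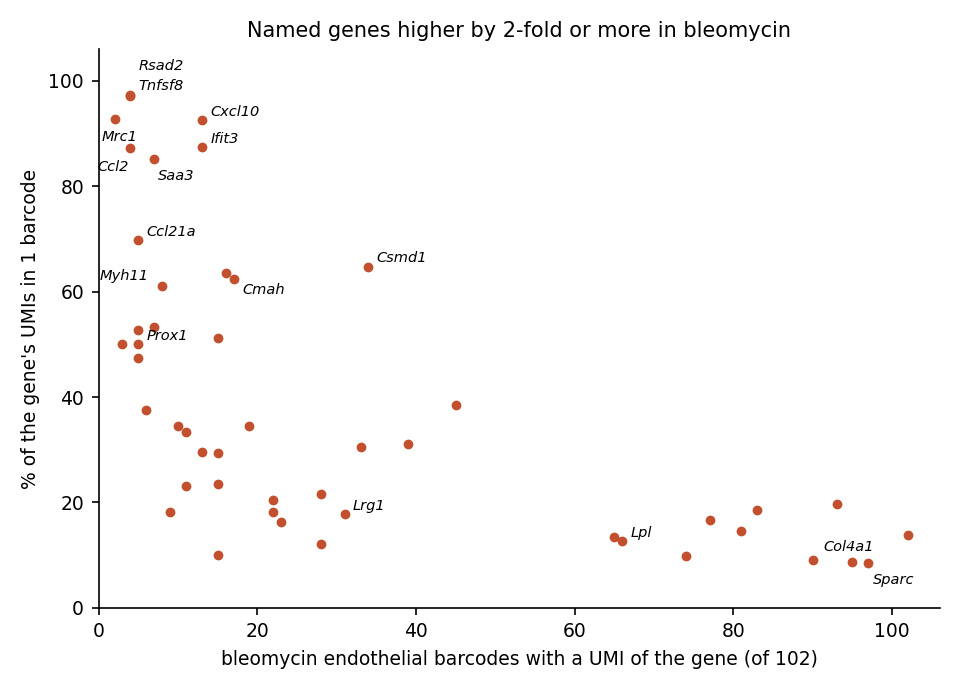
Each point is 1 named gene higher by 2-fold or more in bleomycin members; the x axis counts the bleomycin members with a UMI of it (of 102) and the y axis gives the percent of its UMIs in the barcode that holds most. Genes at the upper left, such as Rsad2 (97.4%) and Tnfsf8 (97.1%), rest on 1 barcode, and those at the lower right, such as Sparc (8.48%) and Col4a1 (8.79%), are spread over more than 90 members.

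Genes on no list showed the same concentration, as the plot of the share held by 1 barcode shows. Tnfsf8 had 103 UMIs in bleomycin and 0 in PBS, at least 88.7-fold higher against the limit of 3 counts, and 97.1% of these lay in 1 barcode, as did 85.1% of the UMIs of the acute phase gene Saa3. The chemokine gene Ccl2 (1.92) had 87.3% of its UMIs in 1 barcode, Ccl7 (3 and 63 UMIs, 5.05, 4.15 to 8.08) had 63.5%, and Csmd1 (5.56) had 64.8%. The barcode with most Tnfsf8 and Saa3 UMIs (28749 UMIs, 8 of identity genes) was among the 37 called by the rule only. So was the barcode with most Ccl2, Ccl7 and Csmd1 UMIs (24925 UMIs, 16 of identity genes). In barcodes with 0 rule UMIs Csmd1 (4.62), Saa3 (4.77) and Tnfsf8 (3.63) were higher too, while Ccl7 was level (-0.07). Ptgs2, the inducible prostaglandin synthase, was spread more widely, with 6 UMIs in 4 PBS members and 92 in 33 bleomycin members (4.91, 4.13 to 6.79). All of these UMIs lay in members with Pdgfra or Col1a1 UMIs, and 30.4% of the bleomycin UMIs in the barcode of 29926 UMIs. Ptgs2 was level in barcodes with 0 rule UMIs (89.1 and 94.7 CPM, 0.09), while members held 3.05 and 121 CPM. Its ratio in members thus goes with a low PBS value. Among endothelial-enriched genes Armcx4 (2.15), Arhgap18 (1.77), Slfn2 (1.57) and Tmem252 (1.58) were higher. Slfn2 (2.37) and Arhgap18 (1.64) were higher in barcodes with 0 rule UMIs too, and Slfn2 was enriched by 4-fold in PBS only and had 34.5% of its bleomycin UMIs in the barcode with most interferon response UMIs. Cmah (3.65) had 62.4% of its UMIs in 1 barcode. Cmah was enriched by 4-fold in bleomycin only (log2 enrichment 1.63 in PBS and 4.10 in bleomycin), so its difference helped it onto the list.

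On the lower side, Sntb1, a syntrophin, was seen in 62 PBS and 5 bleomycin members (68.1 and 9.18 CPM, -2.76, -4.23 to -1.81), although it was higher in barcodes with 0 rule UMIs (1.80). Hopx, a homeodomain cofactor, was seen in 85 and 24 members (230 and 51.2 CPM, -2.15) and was equally lower in the other barcodes (-2.35). Pde8b (-2.11) and Samd5 (-1.83) had 4 and 5 UMIs in bleomycin. The pericyte genes Higd1b (54 and 1 UMIs, -3.62, -9.72 to -1.85) and Cox4i2 (83 and 2 UMIs, -3.57, -7.08 to -2.11) occurred together in 10 PBS members and in no bleomycin member, and either was seen in 20 and 3. The smooth muscle genes Acta2 (3.58) and Myh11 (3.56) were higher, but 1 bleomycin barcode of 29926 UMIs, with 7 identity UMIs, held 31.1% and 61.1% of their UMIs. Without the 37 barcodes named above, Acta2 stood at 5.57 and Myh11 at 1.73. The 37 include that barcode and a PBS barcode of 11546 UMIs, with 5 identity UMIs, which held 63.6% of the PBS Acta2 UMIs. Sfrp5 had 97 UMIs in 2 PBS members and 0 in bleomycin, at least 12.5-fold lower against 3 counts (log2 counting interval up to -3.32). The same PBS barcode of 11546 UMIs held 71.1% of them, and the bound was 3.64-fold without it. Sntb1, Pde8b, Samd5, Higd1b, Cox4i2 and Sfrp5 were enriched by 4-fold in PBS only, so they too were on the list of enriched genes through the library where they were high. Chst8 was at least 10.6-fold lower against 3 counts (log2 counting interval up to -3.07), with 41.5% of its PBS UMIs in 1 barcode. Cfap53 was at least 6.97-fold lower against 3 counts (log2 counting interval up to -2.45). Of its PBS UMIs 64.8% lay in 1 barcode, also among the 37, and the bound was 2.47-fold without it. Both were lower in barcodes with 0 rule UMIs too (-2.21 and -1.66). Slc7a10 (105 and 1 UMIs, -4.56, -10.66 to -2.84) and Colq (152 and 2 UMIs, -4.43, -7.94 to -3.00) were likewise lower there (-2.31 and -2.26).

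The same rule was applied to the libraries of mice that had 1 dose, which the choice of members did not use. It found 38 of 1046 PBS barcodes (3.63%, 2.58 to 4.95) and 13 of 980 bleomycin barcodes (1.33%, 0.708 to 2.26). Identity genes stood at 15681 and 10738 CPM in these, Pdgfra at 352 and 183 CPM and Col1a1 at 276 and 690 CPM. With 13 barcodes no gene was compared.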

How the data were processed

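The authors sorted Pdgfra reporter cells from lung, made 3' single-cell libraries and deposited whole-number UMI counts per gene and barcode, which were used as deposited. The submitters' processing notes list Cell Ranger 3.0.1, Seurat 3 and mm10. Low-depth barcodes had been removed before deposit, since the lowest had 502 (PBS) and 501 (bleomycin) UMIs. The members and all gene lists were chosen with earlier results of these data known. UMIs were summed over members of a library, and genes with 20 or more UMIs over both were compared as log2 ratios of CPM after adding 1 CPM. Adding 1 CPM understates the change of low genes. A log2 ratio of 1 or more in size was counted as 2-fold. No test was made. The limit for a count of 0 was 3 counts. Fold bounds against it leave out the counting error of the library with UMIs. Named genes were the rule genes, Pdgfra, Col1a1, the vessel, identity, VEGF, angiopoietin and Notch lists, and the 2 highest, 2 lowest and 2 most abundant genes of each other list. Added to these were the 8 highest and 8 lowest endothelial-enriched genes, and the 5 highest and 5 lowest genes on no list, all with 50 or more UMIs. The gene comparisons were repeated in 15 other ways, 6 of them chosen after seeing the data, as was keeping the enriched genes fixed. The summing and ratio steps were tested on simulated data. Python 3.11.15, numpy 2.4.6, pandas 2.3.3, scipy 1.17.1 and matplotlib 3.10.9 were used. The AEC2 organoid libraries were not used here.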

Additional observations from a re-analysis of the deposited data

How the results depend on the processing

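Every value rests on 1 library for each condition, so the limits here are of counting and of choice, and mice, sorts and libraries cannot be told apart. Depth limits most genes: a log2 ratio of a gene with few UMIs in the shallower bleomycin members is wide. Where a value moved under an alternative, the cause was not tested. No paired analysis was possible because each condition had 1 library. Leaving out a replicate could not be done for the same reason. The alternatives with rule genes at 1000 CPM or more of a barcode's UMIs, without the 5 deepest members, without members under 0.1% identity UMIs, scaled to the identity genes, and without the bleomycin member that held most Kdr UMIs were chosen after seeing the data, as were the values without the barcode that held most UMIs of a gene.

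The PBS share was 1.87% with rule genes at 1000 CPM or more and 1.18% after thinning. The bleomycin share was 0.725% at 5 rule UMIs, 0.940% with 2 of the 3 rule genes seen, 1.43% with no condition on Ptprc and Epcam, 0.895% at 1000 CPM and 0.476% after thinning. At 5 rule UMIs Col1a1 stood at 318 CPM in PBS and 1209 CPM in bleomycin, Pdgfra at 83.4 CPM in bleomycin, and identity genes at 14196 and 12626 CPM. At 1000 CPM Pdgfra stood at 377 and 97.6 CPM, Col1a1 at 275 and 1357 CPM, and identity genes at 15880 and 14609 CPM. Identity genes were at 30741 and 22825 CPM in FB-low members, and at 8537 CPM in bleomycin members under the 10% mitochondrial limit.

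Genes higher and lower by 2-fold numbered 214 and 319 in FB-low members, 266 and 254 with 10 CPM added, 140 and 229 with 100 UMIs required, 2052 and 2028 with no minimum, and 1313 and 254 scaled to the identity genes. With the mean of the barcodes' CPM 993 were lower. Endothelial-enriched genes higher and lower numbered 47 and 30 at 5 rule UMIs, 42 and 84 in FB-low members, 4 and 9 with 10 CPM added, 10 and 22 with 100 UMIs, 46 and 29 at 1000 CPM, 44 and 25 without the 5 deepest members, and 60 and 20 scaled to the identity genes. With no minimum 38 were higher, with the mean of the barcodes' CPM 104 were lower, and without members under 0.1% identity UMIs 41 were higher. With 4-fold enrichment required in each library, also chosen after seeing the data, 15 were higher and 24 lower. The enriched genes were chosen anew under each of these, and scaling to the identity genes shifts the ratios of all genes alike.

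The identity median was -0.030 at 5 rule UMIs, -0.72 with the mean of the barcodes' CPM, -0.025 at 1000 CPM, 0.00050 without the 5 deepest members and 0.14 scaled to the identity genes. The general capillary median was 0.065, -0.77, 0.12, 0.086 and 0.22 in the same order, and -0.57 in FB-low members. The lymphatic median was 2.26 with the mean of the barcodes' CPM. In FB-low members it was 7.50, a value set by the added 1 CPM, since 3 of the 5 genes had 0 UMIs in PBS, and with these at their bound against 3 counts it was 3.80. The aerocyte median was -0.72 scaled to the identity genes, -1.65 without the bleomycin member that held most Kdr UMIs, and between -1.22 and -0.80 under the other 12 alternatives. Signs turned for Ccl2 (-0.34 at 5 rule UMIs and -0.41 without members under 0.1% identity UMIs), Igfbp7 (-0.10 in FB-low members), Cdh13 (-1.29 with the mean of the barcodes' CPM and -0.25 without members under 0.1% identity UMIs) and Cxcl10 (-0.43 at 1000 CPM).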
